A study of Mus musculus with 28 samples.

Results

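miR-221-3p, miR-222-3p and miR-31-5p are microRNAs (miRNAs, short RNAs that repress mRNAs) followed here after knee injury in the mouse. They are 3 of the 569 miRNA rows of a microarray table, and were picked by name with their values in cartilage already known. All 3 have a value on every cartilage array. In bone, miR-221-3p and miR-222-3p have values and miR-31-5p has none. RNA came from the medial tibial plateau of male wild-type C57BL6 mice operated on at 10 to 12 weeks of age. The DMM groups had the medial meniscus destabilized in both knees by cutting the ligament that ties it to the tibia, a model of osteoarthritis after joint injury. In the sham groups, also operated on both sides, that ligament was exposed and left intact, so all 8 groups had an opened and flushed joint and none was unoperated. Cartilage and the subchondral bone under it were cut out of decalcified frozen sections by laser 1 or 6 weeks later. Each of the 4 cartilage groups holds 3 arrays, each of RNA pooled from 3 mice, and each of the 4 bone groups holds 4 arrays of single mice.

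A miRNA finds its mRNAs mainly through its seed, bases 2 to 8 from the 5′ end, so miRNAs with one seed share many targets. miR-221 and miR-222 are made from neighbouring genes and are known to repress the cell-cycle inhibitor p27 (Cdkn1b), the receptor Kit and the metalloproteinase inhibitor Timp3. They are known for driving proliferation of vascular smooth muscle after vessel injury. miR-31 is made from another locus and is known from healing skin, from muscle stem cells and from bone marrow stromal cells.

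The mature sequences show which of the 3 can share targets through the seed, here in capitals. The prefix mmu stands for mouse and is left out elsewhere. All 3 names matched a mature sequence of RefSeq (GRCm38.p6).
mmu-miR-221-3p: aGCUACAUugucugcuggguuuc
mmu-miR-222-3p: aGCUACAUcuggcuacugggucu
mmu-miR-31-5p: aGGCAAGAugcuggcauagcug
miR-221-3p and miR-222-3p have the seed GCUACAU in common. Their first 8 bases are identical, and 11 of 23 positions are alike when they are laid side by side without gaps. miR-31-5p has the seed GGCAAGA, which no other mature sequence of the table has. The same RefSeq table gives the seed of miR-221-3p and miR-222-3p to miR-1928 as well, which has no row among the array values. The opposite arms miR-221-5p and miR-31-3p have no row either, so Mir221 and Mir31 are seen through 1 arm only. miR-222-5p is missing from that RefSeq table, so this arm was not looked up in the same way.

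The hairpins show where each mature arm lies, with that arm in capitals.
Mir221: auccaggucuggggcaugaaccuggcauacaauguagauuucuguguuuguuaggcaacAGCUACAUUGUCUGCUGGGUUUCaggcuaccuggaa
Mir222: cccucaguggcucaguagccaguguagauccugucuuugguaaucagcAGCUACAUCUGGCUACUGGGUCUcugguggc
Mir31: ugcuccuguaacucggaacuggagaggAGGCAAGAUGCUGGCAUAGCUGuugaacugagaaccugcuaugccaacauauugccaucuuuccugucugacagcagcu
Mir221 lies at chrX:19146294-19146388 and Mir222 at chrX:19146893-19146971, both on the minus strand with 504 bases between them. Neither is inside another annotated gene. Mir31 lies at chr4:88910557-88910662 on the minus strand, inside the span of the long noncoding RNA gene Gm49890 (chr4:88909854-88942042).

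The arrays are Agilent mouse miRNA arrays, and values are the deposited signals, read as log2 from their range. The median row of an array lay at 6.26 to 6.32 (cartilage) or 6.17 to 6.39 (bone). The 3 miRNAs, with signals between 5.57 and 8.31, lay around that median. Values ran from 4.72 to 16.74 in cartilage and from 4.08 to 16.74 in bone, so these signals lay in the lower part of the range. The labels name the cartilage arrays as cartilage in one field and as bone in another. miR-140-3p, a miRNA abundant in cartilage, read 13.12 to 13.74 on these 12 arrays and 8.94 to 9.98 on the 16 bone arrays, and they were taken as cartilage. Arrays of a group correlated at a median r of 0.987 in cartilage and 0.951 in bone, with a lowest of 0.967 and 0.809. In pools or sections of tissue, a change in the number of cells of a type and a change of RNA per cell cannot be told apart. Pools average over mice, so the spreads of the tissues are not comparable.

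The cartilage values of DMM and sham mice chose these miRNAs and are given as a description, without a test. miR-31-5p was higher after DMM at both weeks, miR-222-3p was higher at 1 week and level with sham at 6 weeks, and miR-221-3p differed least in size at 1 week, by 0.24, and by -0.19 at 6 weeks. At 1 week the DMM arrays of 2 of the 3 miRNAs lay wholly above the sham arrays, and at 6 weeks those of 1. Among all 438 miRNAs measured in cartilage, 24.9% had DMM arrays wholly above sham at 1 week and 17.4% at 6 weeks. The limma fit over all of them called 15.8% higher at 1 week and 9.59% at 6 weeks at an adjusted p of 0.05.

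**Figure D1:**
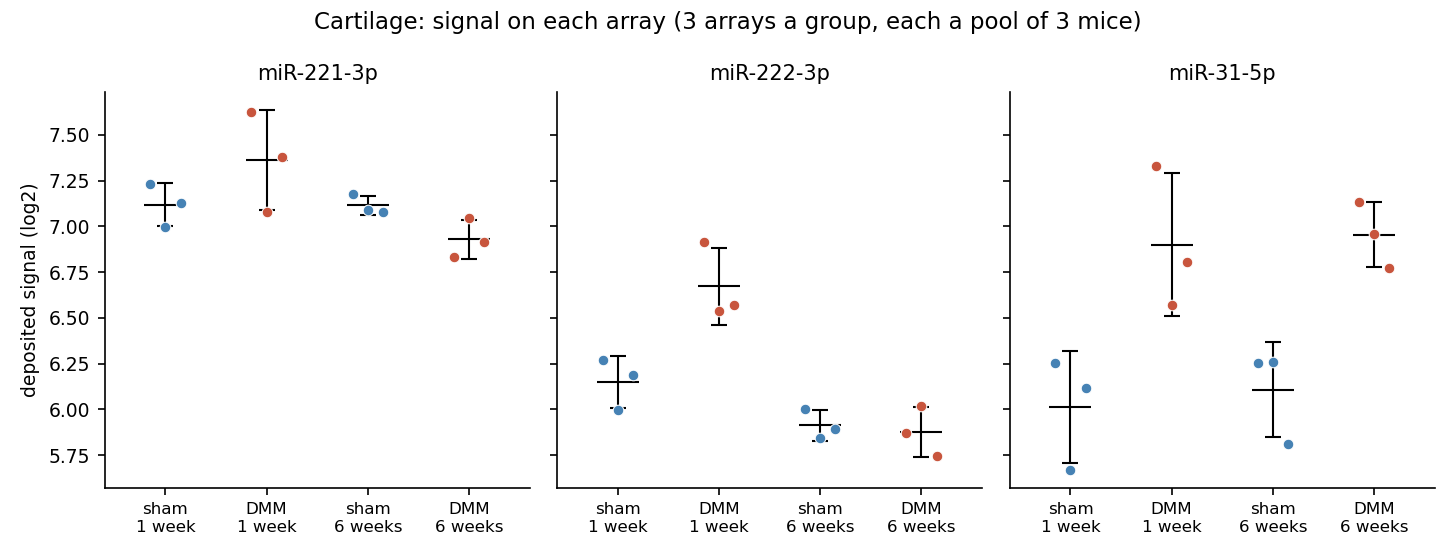
Deposited log2 signal of each cartilage array (points, sham in blue and DMM in red) for the 3 miRNAs in the 4 groups of operation and week, with mean and SD in black (3 arrays a group). miR-31-5p is above sham at both weeks, miR-222-3p at 1 week only, and the miR-221-3p groups lie closest together.

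For miR-31-5p, sham arrays 1 week after surgery read 6.26, 5.67 and 6.12 and DMM arrays 7.33, 6.57 and 6.81, on the log2 scale. The lowest DMM array was above the highest sham array. The means were 6.01 ± 0.31 and 6.90 ± 0.39 (SD, n = 3 each), a difference of 0.89 ± 0.21 (SE), or 1.85-fold. At 6 weeks the sham arrays read 6.25, 6.26 and 5.81 and the DMM arrays 7.13, 6.96 and 6.77, again without overlap. The means were 6.11 ± 0.26 and 6.95 ± 0.18 (SD, n = 3 each), a difference of 0.85 ± 0.21 (SE), or 1.80-fold. The effects of the 2 weeks differed by -0.04 ± 0.30 (SE). The difference ranged from 0.67 to 1.05 at 1 week and from 0.70 to 0.94 at 6 weeks when any 1 of the 12 arrays was left out.

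For miR-222-3p, the 1-week sham arrays read 6.27, 6.00 and 6.19 and the DMM arrays 6.91, 6.54 and 6.57. All DMM arrays were above all sham arrays, with means of 6.15 ± 0.14 and 6.67 ± 0.21 (SD, n = 3 each). The difference was 0.52 ± 0.13 (SE), or 1.44-fold, and 0.40 to 0.59 with any 1 array left out. At 6 weeks the sham arrays read 6.00, 5.84 and 5.89 and the DMM arrays 5.87, 6.02 and 5.75. These groups overlapped fully, with means of 5.91 ± 0.08 and 5.88 ± 0.14 (SD, n = 3 each) and a difference of -0.03 ± 0.13 (SE). The DMM effect at 6 weeks was lower than that at 1 week by a log2 difference of -0.56 ± 0.18 (SE). For this change of effect, limma called 0 of the 438 cartilage miRNAs at an adjusted p of 0.05. An unadjusted limma p under 0.05 was found for 2.97% of them.

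For miR-221-3p, which has the same seed, the 1-week sham arrays read 7.23, 7.00 and 7.13 and the DMM arrays 7.63, 7.08 and 7.38. DMM replicate 2 was within the sham range and the other 2 were above it. The means were 7.12 ± 0.12 and 7.36 ± 0.27 (SD, n = 3 each), and the difference of 0.24 ± 0.13 (SE) was 0.11 without DMM replicate 1 and 0.38 without DMM replicate 2. At 6 weeks the sham arrays read 7.18, 7.09 and 7.08 and the DMM arrays 6.83, 7.04 and 6.91. Here all DMM arrays were below all sham arrays, a separation found for 18% of the 438 miRNAs at that week. The difference was -0.19 ± 0.13 (SE), from 7.12 ± 0.05 to 6.93 ± 0.11 (SD, n = 3 each).

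Read over time within DMM cartilage, the pair from chromosome X was lower at 6 weeks than at 1 week, and miR-31-5p was not. The 6-week DMM arrays lay wholly below the 1-week DMM arrays for miR-221-3p, a log2 difference of -0.43 ± 0.13 (SE), and for miR-222-3p, one of -0.79 ± 0.13 (SE). Such a separation downward was found for 13% of the 438 miRNAs. For miR-31-5p the 2 groups overlapped, with a difference of 0.05 ± 0.21 (SE). Ordered by mean, miR-222-3p ran from DMM at 1 week through sham at 1 week and sham at 6 weeks to DMM at 6 weeks, and only the first step was free of overlap. miR-221-3p ran in the same order of groups, with overlap at its first and second steps and none at the last. For miR-31-5p both DMM groups stood above both sham groups, with overlap inside each pair.

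**Figure D2:**
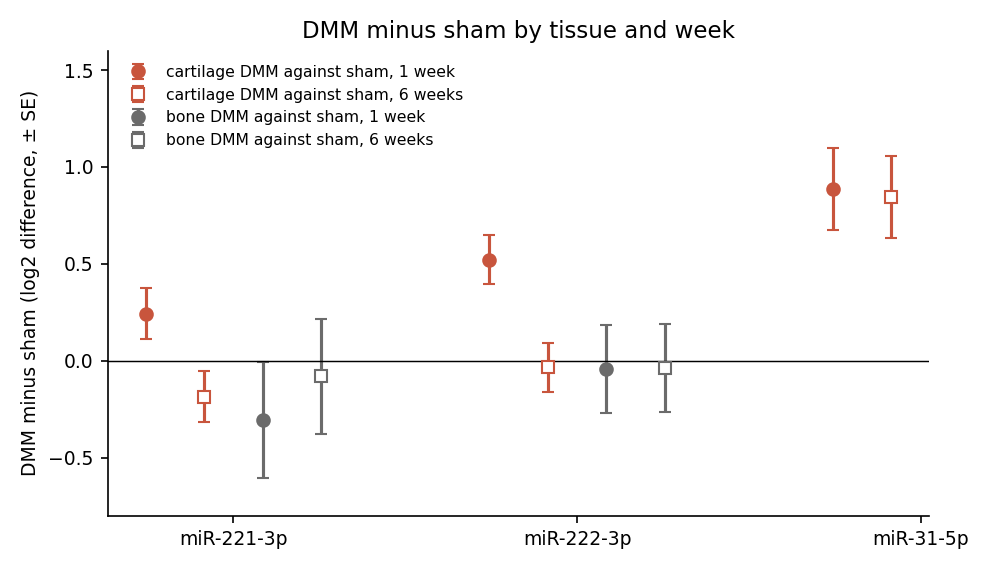
DMM minus sham as a log2 difference (points, with SE bars from the fit) for each miRNA in cartilage (red) and subchondral bone (grey), at 1 week (filled circles) and 6 weeks (open squares). miR-31-5p has cartilage values only, 0.89 and 0.85, while the bone values of the other 2 lie between -0.31 and -0.04.

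The change over time in sham cartilage is another contrast than DMM against sham, but its arrays were among the values known when the miRNAs were picked, so its tests are no independent evidence. Between sham at 6 weeks and sham at 1 week, none of the 3 passed, in a fit that called 0.228% of the 438 miRNAs (1 of them) at an adjusted p of 0.05. miR-221-3p differed by 0.00 ± 0.13 (SE), with a 95% interval of -0.29 to 0.28 and a limma adjusted p of 0.998. miR-222-3p differed by -0.24 ± 0.13 (SE), with an interval of -0.51 to 0.04 and a limma adjusted p of 0.332. miR-31-5p differed by 0.09 ± 0.21 (SE), with an interval of -0.36 to 0.55 and a limma adjusted p of 0.937. Changes within these intervals are not excluded, and that of miR-222-3p reaches further down (-0.51) than up (0.04).

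Markers of other cells in the cartilage samples are given for comparison. The summed signal of 4 cartilage miRNAs (both arms of miR-140 and miR-455) was 13.94 to 14.22 in sham and 13.69 to 14.03 in DMM at 1 week on the log2 scale, and 13.99 to 14.06 and 13.61 to 13.85 at 6 weeks. Of 3 red-cell miRNAs 2 had values, and their sum was 7.41 to 8.27 in sham and 7.58 to 7.99 in DMM at 1 week, and 8.50 to 10.18 and 7.75 to 8.55 at 6 weeks. Of 5 leukocyte miRNAs 3 had values, with sums of 8.27 to 8.78 and 8.21 to 8.69 at 1 week, and of 8.64 to 9.79 and 8.00 to 8.52 at 6 weeks. miR-144-3p, miR-142a-5p and miR-150-5p had no values in cartilage. The leukocyte sums and the cartilage sums were both lower in DMM than in sham without overlap at 6 weeks. Taken singly, 2 of 4 cartilage and 1 of 3 leukocyte miRNAs were wholly lower at that week, beside 18% of all 438 miRNAs. Of the 4 cartilage miRNAs 0 passed by limma at 6 weeks. Their differences were -0.34 (miR-140-3p), -0.30 (miR-140-5p), -0.02 (miR-455-3p) and -0.08 (miR-455-5p). Both measured red-cell miRNAs and 2 of 3 leukocyte miRNAs fell at 6 weeks by limma, where 7.31% of the 438 miRNAs fell.

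miR-126a-3p, the endothelial marker with values in cartilage, read 5.82 to 6.37 in sham and 5.36 to 7.24 in DMM at 1 week, and 5.93 to 7.18 and 5.20 to 6.30 at 6 weeks. Of 4 mesenchymal miRNAs, the 2 with values (miR-199a-3p and miR-214-3p) summed to 10.56 to 10.66 in sham and 10.02 to 10.64 in DMM at 1 week, and to 10.51 to 10.76 and 9.74 to 10.52 at 6 weeks. miR-126a-5p, miR-143-3p and miR-145a-5p had no values. The 4 muscle miRNAs summed to 7.76 to 8.82 in sham and 7.51 to 7.82 in DMM at 1 week, and to 7.75 to 8.57 and 7.61 to 9.27 at 6 weeks. None of these 3 sums was wholly higher in DMM at either week. Within the muscle list, miR-206-3p rose at both weeks, by 0.53 ± 0.13 (SE) with a limma adjusted p of 0.0107 at 1 week and by 0.53 ± 0.13 (SE) with one of 0.0166 at 6 weeks. Its DMM arrays lay wholly above the sham arrays at both weeks, and the other 3 muscle miRNAs did not pass at either week. At 1 week those 3 went the other way, with -0.97 (miR-1a-3p), -0.78 (miR-133b-3p) and -0.73 (miR-133a-3p). Of the 4 muscle miRNAs, 2 had DMM arrays wholly below sham at that week, as 23.3% of all 438 miRNAs did. The part of these cells in the values was not tested.

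Other miRNAs often raised in injured or inflamed tissue were compared as a list of 14, of which 12 had values in cartilage. At 1 week 1 of 12 rose by limma, the stromal miR-214-5p (0.53 ± 0.14, SE, adjusted p 0.0142), and 0 fell, against 27.9% of all miRNAs called in either direction. miR-21a-5p, often raised in inflammation and scarring, had 0.80 ± 0.37 (SE) with a limma adjusted p of 0.118, and miR-212-3p had 0.51 ± 0.23 (SE) with 0.118. miR-146a-5p, a brake on inflammatory signalling, had -0.17, and miR-155-5p, which promotes it, 0.11. The list's median was -0.16 beside -0.02 for all 438 miRNAs. At 6 weeks 0 of 12 passed, against 16.9% of all miRNAs, with a median of -0.06 beside -0.04, and miR-21a-5p had 0.65 ± 0.37 (SE).

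Within groups, the 3 miRNAs moved together from array to array. DMM 1-week replicate 1 was the highest cartilage array for each of them, and sham 1-week replicate 2 was the lowest of its group for each. After subtracting group means, miR-221-3p and miR-222-3p correlated at r = 0.84 (rho = 0.83) over the 12 cartilage arrays and at r = 0.94 (rho = 0.91) over the 16 bone arrays. The median over all pairs of miRNAs was -0.01 in cartilage and 0.00 in bone. Without the 2 arrays farthest out for miR-221-3p, r was 0.77 in cartilage and 0.88 in bone. Without the 2 farthest out for miR-222-3p, it was 0.69 in cartilage and, with the same bone arrays left out, 0.88 in bone. miR-31-5p and miR-222-3p, which share neither seed nor chromosome, correlated at r = 0.79 (rho = 0.78), and at 0.76 without the 2 arrays farthest from the median of miR-222-3p or 0.69 without the 2 farthest from that of miR-31-5p. For miR-31-5p and miR-221-3p r was 0.73 (rho = 0.62) and fell to 0.47 without 2 arrays of the 1-week DMM group. These values come from arrays that also share their RNA input and scaling, and they describe 4 correlations with no test.

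**Figure D3:**
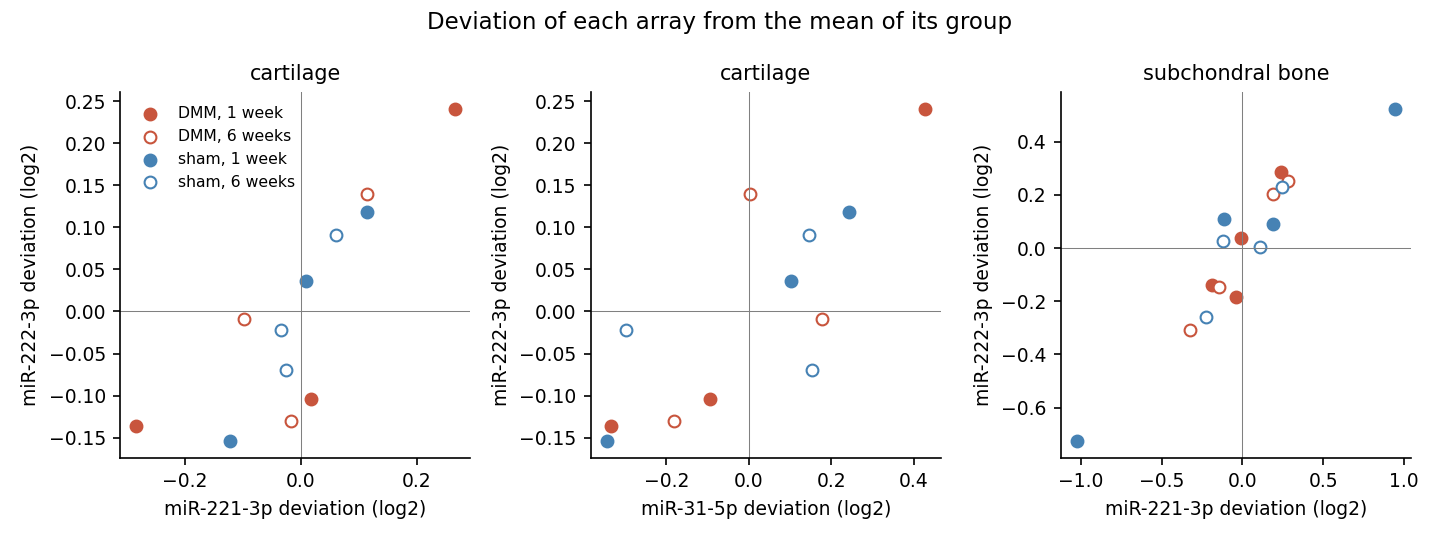
Deviation of each array from its group mean (log2), miR-222-3p against miR-221-3p in cartilage (left) and bone (right) and against miR-31-5p in cartilage (middle), with sham in blue, DMM in red, 1 week filled and 6 weeks open. The points rise from lower left to upper right in all 3 panels, with r of 0.84, 0.79 and 0.94 from left to middle to right.

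By Pearson correlation of log2 values over all 12 cartilage arrays, groups included, the miRNAs most like miR-222-3p were miR-1224-5p (0.94), miR-7048-5p (0.90) and miR-188-5p (0.88). Those most like miR-221-3p were miR-188-5p (0.76), miR-328-5p (0.72) and miR-1907 (0.67). Those most like miR-31-5p were miR-7118-5p (0.93), miR-3098-3p (0.84) and miR-6959-5p (0.84). Over the 16 bone arrays miR-146b-5p (0.98), miR-218-5p (0.97) and miR-350-3p (0.97) were nearest to miR-221-3p, and miR-148b-3p (0.95), miR-345-5p (0.95) and miR-350-3p (0.95) to miR-222-3p. The cartilage rankings include the group differences that chose the miRNAs, and only 359 rows have values in both tissues, so the rankings are not compared.

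In subchondral bone neither miR-221-3p nor miR-222-3p differed detectably between DMM and sham in the group-mean fit. The bone values were also known when the miRNAs were picked, so these tests are no independent evidence. For miR-221-3p, sham arrays 1 week after surgery read 6.35, 7.56, 7.25 and 8.31 and DMM arrays 7.30, 7.02, 7.06 and 6.87. The sham arrays spanned a wider range than the DMM arrays and enclosed it. The means were 7.37 ± 0.81 and 7.06 ± 0.18 (SD, n = 4 each), and the difference was -0.31 ± 0.30 (SE) with a 95% interval of -0.94 to 0.33 and a limma adjusted p of 0.999. Without sham replicate 4, the highest array, it was 0.01, and without sham replicate 1, the lowest, -0.65. With array weights, an alternative that counts less regular arrays for less, the difference was -0.56 with a limma adjusted p of 0.0336, in a fit that called 38 of 490 miRNAs and whose weights stopped before reaching their tolerance.

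For miR-222-3p the 1-week sham arrays of bone read 5.57, 6.39, 6.41 and 6.82 and the DMM arrays 6.54, 6.07, 6.29 and 6.12. The lowest and highest sham arrays were the same mice as for miR-221-3p. The difference was -0.04 ± 0.23 (SE) with a 95% interval of -0.53 to 0.44 and a limma adjusted p of 0.999. Its sign had no hold: it was -0.29 without sham replicate 1, 0.13 without sham replicate 4 and 0.10 with arrays centred on their 75th percentile. The difference between tissues was not tested.

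**Figure D4:**
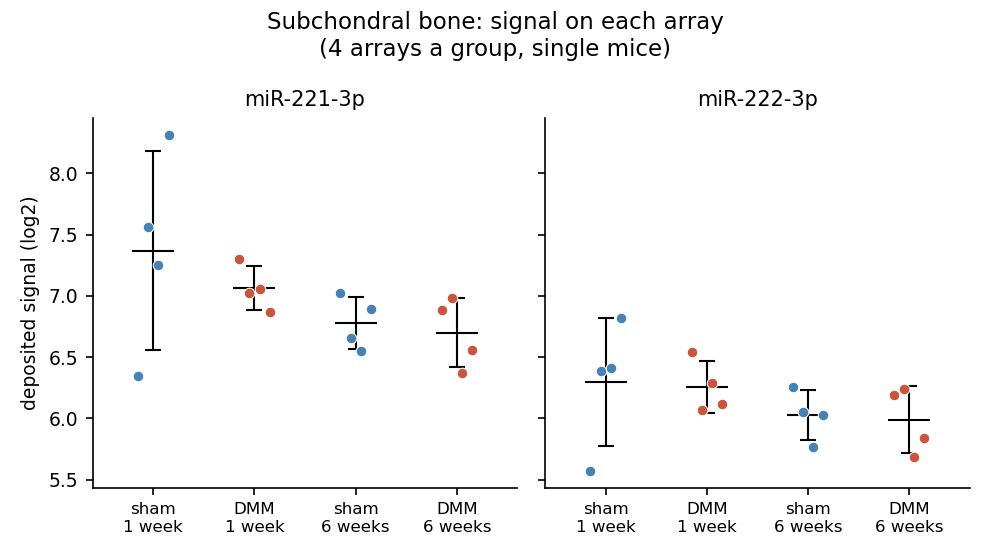
Deposited log2 signal of each subchondral bone array (points, sham in blue and DMM in red) for miR-221-3p and miR-222-3p in the 4 groups, with mean and SD in black (4 mice a group). DMM and sham overlap at both weeks, and sham at 1 week has the widest spread, 6.35 to 8.31 for miR-221-3p.

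At 6 weeks the bone sham arrays read 7.02, 6.66, 6.55 and 6.89 for miR-221-3p and the DMM arrays 6.89, 6.98, 6.37 and 6.56. The groups overlapped, with a difference of -0.08 ± 0.30 (SE), a 95% interval of -0.71 to 0.55 and a limma adjusted p of 0.998. For miR-222-3p they read 6.26, 6.06, 5.77 and 6.03 in sham and 6.19, 6.24, 5.68 and 5.84 in DMM. The difference was -0.04 ± 0.23 (SE), with an interval of -0.52 to 0.45 and a limma adjusted p of 0.998. Of all 490 miRNAs measured in bone, limma called 0% at either week, with 3 at an unadjusted p under 0.05 at 1 week and 2 at 6 weeks. The injury list had 0 of 14 called at either week.

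The DMM effect in bone differed between weeks by 0.23 ± 0.42 (SE) for miR-221-3p and by 0.01 ± 0.32 (SE) for miR-222-3p, both with a limma adjusted p of 1.00. No miRNA of the 490 passed in that comparison (0%), with 1 at an unadjusted p under 0.05. Over time in sham bone, miR-221-3p had -0.59 ± 0.30 (SE) at 6 weeks against 1 week, with an interval of -1.22 to 0.04 and a limma adjusted p of 0.414. With array weights the value for miR-221-3p was -0.65 with a limma adjusted p of 0.0125, in a fit that called 140 of 490 miRNAs. Without sham 1-week replicate 4 it was -0.27 with a limma adjusted p of 0.81, and without sham 1-week replicate 1 it was -0.93. miR-222-3p had -0.27 ± 0.23 (SE), with an interval of -0.75 to 0.22 and a limma adjusted p of 0.568. No miRNA passed in this comparison (0%), with 54 of 490 at an unadjusted p under 0.05. Among marker sums, the 2 endothelial miRNAs gave 9.68 to 11.12 in sham bone at 1 week and 9.49 to 9.91 at 6 weeks. The 5 leukocyte miRNAs gave 12.96 to 14.39 and 12.68 to 13.12, though miR-150-5p (0.26) and miR-342-3p (0.08) were higher at 6 weeks. The 4 mesenchymal miRNAs gave 10.19 to 11.38 and 9.83 to 10.36, and 3 cartilage miRNAs 9.54 to 10.92 and 9.65 to 9.94. The 3 red-cell miRNAs gave 11.18 to 13.45 and 12.94 to 13.54. miR-206-3p, the 1 muscle miRNA measured in bone, read 5.86 to 6.38 and 6.28 to 7.30. The part of these cells in the values was not tested.

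Most of the spread of both miRNAs in bone followed a pattern common to many rows. The first principal component of the bone arrays' deviations from group means, computed without the members, held 59.4% of the variation, and 33.3% of the rows correlated with its score beyond 0.8 in size. miR-221-3p correlated with the score at r = 0.89 (rho = 0.94) and miR-222-3p at r = 0.95 (rho = 0.95) over 16 arrays, and at 0.91 and 0.93 without the arrays at its ends, sham 1-week replicates 1 and 4. With the score as a covariate, an alternative added after the data were seen, differences between bone groups cannot move, since the score is built from deviations within groups, and only their errors shrink. The sham difference of miR-221-3p over time, -0.59, then had a SE of 0.15 in place of 0.30 and a limma adjusted p of 0.0301, with 65 of 490 miRNAs called. The score was built from the same deviations whose spread it then removes, so this p-value and count are no valid test. DMM against sham did not pass at either week with the score as covariate.

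**Figure D5:**
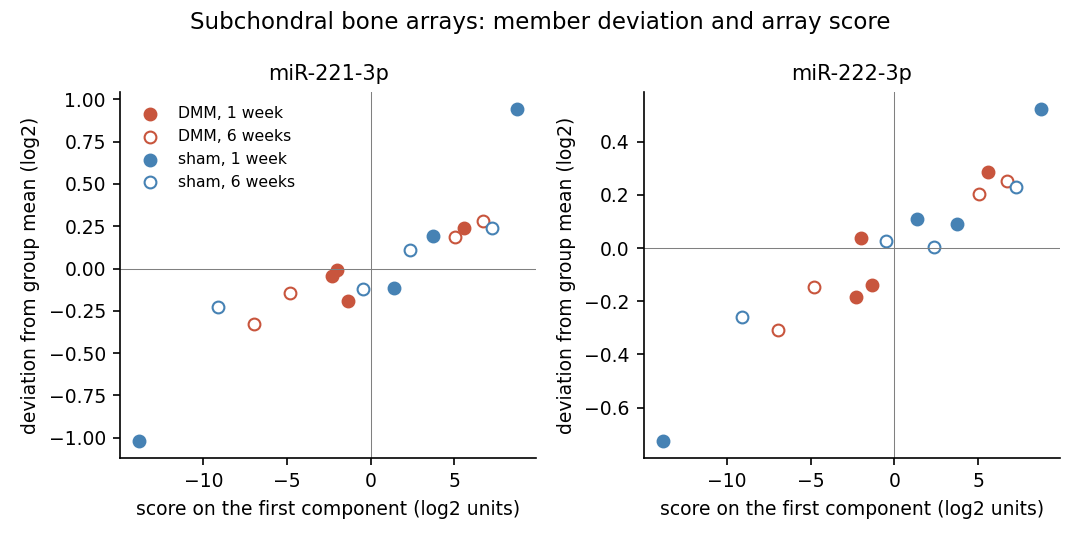
Deviation of miR-221-3p (left) and miR-222-3p (right) from the group mean (log2) on each of the 16 subchondral bone arrays, against the array's score on the first component of all other rows, with sham in blue, DMM in red, 1 week filled and 6 weeks open. Both rise with the score (r of 0.89 and 0.95), and 2 sham arrays of week 1 lie at its ends.

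The same component, projected on the cartilage arrays, differed between the cartilage groups. Scores were 0.79 to 1.36 in sham and -3.76 to -2.44 in DMM at 1 week, and 2.05 to 2.90 in sham and -1.59 to 1.37 in DMM at 6 weeks. In bone, miR-222-3p was higher where the score was higher within groups. In cartilage at 1 week, the DMM arrays were higher for miR-222-3p and lower in score, which is a difference between groups. No correlation with the score within cartilage groups was computed, so the tissues are not compared in this. With the score as a covariate the 1-week cartilage differences were 0.35 for miR-221-3p, 0.50 for miR-222-3p and 0.73 for miR-31-5p, and those at 6 weeks -0.11, -0.05 and 0.72. Since the score separates DMM from sham in cartilage, the 2 cannot be told apart there.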

How the data were processed

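The deposited table holds log2 signals of the authors' arrays, taken as log2 from the values, and was used as deposited. Per the labels' protocols, 70 ng of total RNA was labelled per array. The submitters' processing notes name limma 3.20.9, while how background, scaling and row filter were handled is not given in these sources. Rows had been filtered per tissue (438 in cartilage, 490 in bone, 359 in both), and a shared scaling of the tissues is not stated, so levels were not compared between tissues. The table had 0 unused columns. Group, operation and week came from titles and tissue from the source field.

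limma 3.58.1 (R 4.3.3) fitted group means to all arrays of a tissue, with Benjamini-Hochberg adjustment over all its miRNAs and a threshold of 0.05. The fit was tested on simulated data whose rows vary independently. Many rows in bone share a pattern, which the simulation left out. Precision is limited by the number of arrays. Cartilage replicates are pools and bone replicates mice, and p-values rest on their spread. Correlations used Python 3.11.15. The miRNAs, lists and tests were chosen with earlier results of these data known. The rule for names was the 3 miRNAs, their other arms and seed relatives, the 3 nearest by correlation per tissue, and listed injury and cell-marker miRNAs. The alternatives were a quantile or 75th-percentile scaling, a filter at the median level, array weights, the compared groups alone, a trended robust prior, a replicate block and each array left out. A gradient score as covariate, its end arrays left out and centring on the median were added after seeing the data.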

Additional observations from a re-analysis of the deposited data

How the results depend on the processing

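Of 84 recomputed values of tested differences of the 3 miRNAs, single arrays left out apart, 75 kept their direction and side of the threshold, 6 turned and 3 came to pass. Of 46 of untested cartilage differences 1 turned, that of miR-222-3p for DMM at 6 weeks, from -0.03 to 0.025 with array weights. Many in both sets could not turn, since the row filter, compared groups alone, trended prior and replicate block leave group differences unchanged. So does the gradient covariate in bone. With these, only the side of the threshold could change. In bone, miR-222-3p turned to 0.020 (quantile normalization) and 0.096 (75th percentile) for DMM against sham at 1 week, and to -0.079, -0.17 and, with array weights, -0.019 for the change of that effect by week. miR-221-3p turned to 0.019 (75th percentile) between the sham weeks in cartilage. It passed in bone with array weights for DMM at 1 week (-0.56) and between the sham weeks (-0.65). For the latter it also passed with the gradient covariate (-0.59), which is no valid test, since its score comes from the same deviations. The array weights stopped before reaching their tolerance in bone, and the causes were not tested.

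Of counts of called miRNAs, array weights gave 38 and 54 in bone for DMM at 1 and 6 weeks and 140 between its sham weeks, where the gradient covariate gave 65, all against 0. In cartilage they gave 68 against 1 between the sham weeks and 189 against 74 for DMM at 6 weeks. The 1 call between the sham weeks became 0 without rows below the median level (which drops miR-222-3p), with the 2 groups alone, with the replicate block and with the gradient covariate. For DMM in cartilage the 122 calls of 438 miRNAs at 1 week became 54 of the 219 left without low rows. With the gradient covariate they became 0. The 74 of 438 at 6 weeks became 40 of 219 and 0 in the same way, 29 with the 2 groups alone and 43 with the replicate block. Counts without low rows are out of fewer miRNAs, so they do not compare directly with the others. The replicate block cannot move a difference, since each cartilage group holds each replicate number once, and only the errors changed with it. Same-numbered cartilage arrays deviated with a median r of -0.25, above 0.1 in 3 of 18 pairs, so numbers were not taken as pairs.

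With 1 array left out, bone differences for miR-221-3p and miR-222-3p ran from -0.65 to 0.0088 and -0.29 to 0.13 (DMM, 1 week), -0.17 to 0.029 and -0.12 to 0.065 (DMM, 6 weeks), -0.089 to 0.57 and -0.17 to 0.25 (change of effect), and -0.93 to -0.27 and -0.51 to -0.10 (sham weeks). In cartilage the sham weeks gave -0.066 to 0.053, -0.32 to -0.18 and, for miR-31-5p, -0.077 to 0.24. DMM at 6 weeks gave -0.24 to -0.14, -0.10 to 0.03 and 0.70 to 0.94. Counts stayed at 0 for both DMM comparisons and their change in bone, and ran from 0 to 5 (bone sham weeks, 5 without sham 1-week replicate 1), 0 to 9 (cartilage sham weeks, 9 without sham 6-week replicate 1), 42 to 141 (cartilage DMM, 1 week, 42 without DMM 1-week replicate 3) and 20 to 166 (6 weeks, without DMM 6-week replicate 2 and without sham 6-week replicate 1).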
